A study of Homo sapiens with 12 samples.

Results

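A set of 10 genes of the tight junction were followed through erlotinib tolerance and TDP1 loss in PC9 cells: the claudins CLDN1, CLDN2, CLDN3, CLDN4, CLDN7 and CLDN18, the membrane proteins OCLN and F11R, and the scaffold proteins TJP1 and TJP3. They were chosen by name, by matching the Ensembl identifiers of the count table to these symbols, so that 10 of 62754 genes were taken. Of these, 9 passed a filter on low counts and were tested among 17115 genes. CLDN18 was the exception, with 0 counts in all 12 libraries.

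PC9 is a human lung adenocarcinoma line with an activating EGFR mutation, and erlotinib is an inhibitor of the EGFR kinase. All cells came from 1 subclonal PC9 line. There were 4 groups of 3 replicate cultures. WT cells were wild type for TDP1 and untreated. DTC, short for drug-tolerant cells, were WT cells kept in erlotinib at 1 µM for 7 days. DTEC, the drug-tolerant expanded cells, were WT cells kept at the same dose for 28 days. KO cells were an untreated TDP1 knockout line labelled KO2. TDP1 encodes a repair enzyme that removes topoisomerase I adducts from DNA. The knockout was represented by 1 line, which was analysed here without drug only, and the cultures of a group were split from a common flask, so that p-values measured the spread between these cultures only. All libraries were polyA-selected and labelled as 1 batch.

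Tight junctions seal the space between neighbouring epithelial cells near their apical side. Claudins are 4-pass membrane proteins whose strands set which ions cross that seal: some close it and others form paracellular channels, so the mixture of claudins sets the property of the junction. Occludin and the junctional adhesion molecule F11R lie in the same membrane domain, and the ZO scaffold proteins encoded by the TJP genes tie the strands to actin. In the lung, the airway and alveolar epithelium is sealed in this way, with CLDN18 a claudin known from alveolar cells.

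Totals ran from 25572691 to 38373679 estimated counts per library. TDP1 stood at 25.1 to 28.1 CPM in the WT libraries and at 10.1 to 11.3 CPM in the KO libraries, where CPM relates a count to the TMM-normalized size of its library (log2 fold change -1.29, adjusted p = 1.3e-05 in edgeR's quasi-likelihood test). Epithelial markers (6 of 6, among them EPCAM, CDH1 and the keratins KRT8 and KRT18) were abundant throughout, summing to 10790 to 11390 CPM in WT libraries and 11480 to 12310 CPM in KO libraries, and to 6293 to 7277 CPM in DTC and 9276 to 12150 CPM in DTEC. The lung lineage markers covered 6 gene identifiers, with SFTA3 listed more than once, and 3 of the 6 were tested. NKX2-1 was at or below 0.442 CPM in all libraries and SFTPC at or below 0.088. SFTPB lay at 1.18 to 2.09 CPM in untreated WT libraries and 5.23 to 7.25 in KO libraries, and at 0.0294 to 0.147 under 7 days of erlotinib and 11.7 to 17.1 after 28 days. NAPSA was at most 0.202 CPM in WT and at 1.05 to 1.96 in DTC. Of the fibroblast markers, which summed to 7.99 to 8.91 CPM in WT and 55.9 to 58.3 in DTC, COL1A1 made up nearly all, and 3 of 8 were at or under 3 counts in every library. The part of these marker shifts in the results on DTC was not tested. In bulk RNA of this kind, fewer cells of a type and less RNA per cell cannot be told apart.

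One library stood apart within its group. DTC replicate 1 differed from DTC replicates 2 and 3 by a chi-square of 118 and 73.1 per gene, against 3.74 to 49.1 for the other pairs of replicates. Its log2 CPM, relative to the DTC mean, had a slope of -0.132 per 10 percentage points of transcript GC content. Against their own group means, DTEC replicate 3 (0.125) and WT replicate 1 (-0.109) had slopes of similar size, so this tilt was not particular to it. For a number of members, and for the plaque and adherens gene lists, results on DTC are also given without DTC replicate 1.

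The promoters of CLDN1 and TJP3, the members that rose most at 7 and at 28 days, and of the adjacent CLDN3 and CLDN4 genes are shown first, because the regulators measured below include proteins known to bind the E-box. Each window holds 250 bases before and 50 after a RefSeq transcript start (GRCh38.p14). Capitals mark matches on either strand to the E-box CAGGTG, the element bound by the Snail and ZEB repressors, and to the GC box GGGCGG, the element bound by Sp1-type factors.
CLDN1 promoter, chr3:190322397-190322696, minus strand: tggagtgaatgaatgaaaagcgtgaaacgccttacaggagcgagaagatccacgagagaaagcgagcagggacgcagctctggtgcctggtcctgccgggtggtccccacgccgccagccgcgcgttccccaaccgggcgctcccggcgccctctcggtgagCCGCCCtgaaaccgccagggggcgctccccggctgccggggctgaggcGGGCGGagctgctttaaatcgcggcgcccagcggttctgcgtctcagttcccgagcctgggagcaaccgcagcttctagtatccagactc
CLDN3 promoter, chr7:73770221-73770520, minus strand: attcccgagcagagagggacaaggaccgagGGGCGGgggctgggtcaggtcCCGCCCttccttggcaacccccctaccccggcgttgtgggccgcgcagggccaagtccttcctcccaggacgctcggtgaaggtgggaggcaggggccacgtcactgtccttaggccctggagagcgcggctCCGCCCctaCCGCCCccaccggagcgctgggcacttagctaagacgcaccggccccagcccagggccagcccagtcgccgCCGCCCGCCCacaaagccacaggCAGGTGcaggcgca
CLDN4 promoter, chr7:73830746-73831045, plus strand: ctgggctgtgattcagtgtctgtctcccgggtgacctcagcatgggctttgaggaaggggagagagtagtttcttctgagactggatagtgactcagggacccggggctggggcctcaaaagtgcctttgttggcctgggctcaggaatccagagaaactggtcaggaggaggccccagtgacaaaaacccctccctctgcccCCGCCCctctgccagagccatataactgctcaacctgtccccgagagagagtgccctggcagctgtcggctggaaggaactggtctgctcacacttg
TJP3 start 1 promoter, chr19:3708134-3708433, plus strand: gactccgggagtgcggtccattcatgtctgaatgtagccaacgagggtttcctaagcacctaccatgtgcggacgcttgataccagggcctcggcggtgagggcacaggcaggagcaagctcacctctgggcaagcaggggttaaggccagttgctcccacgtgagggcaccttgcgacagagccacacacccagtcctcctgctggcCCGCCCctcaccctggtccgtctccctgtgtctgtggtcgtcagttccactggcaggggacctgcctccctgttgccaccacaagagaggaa
TJP3 start 2 promoter, chr19:3721487-3721786, plus strand: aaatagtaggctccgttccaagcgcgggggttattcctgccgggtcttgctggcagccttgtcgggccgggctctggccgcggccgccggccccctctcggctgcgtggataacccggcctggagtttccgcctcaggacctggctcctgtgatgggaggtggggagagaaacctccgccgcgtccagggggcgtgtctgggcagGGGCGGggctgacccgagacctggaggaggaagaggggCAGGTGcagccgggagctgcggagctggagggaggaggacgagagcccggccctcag
The CLDN3 window held 1 E-box, which lay after the transcript start, and 6 GC boxes. TJP3 had 1 E-box and 1 GC box at its second start and 1 GC box at its first. CLDN1 and CLDN4 had no match to CAGGTG on either strand in these windows, and held 2 and 1 GC boxes. Other spellings of the E-box were not searched. A window was found for 9 of the 10 members, 17 windows in all. An E-box was present in 7 of the 17 and a GC box in 11, beside 20.6% and 45% of all 35116 windows. CLDN7 had the most E-boxes, 5 at its second start. Other motifs were searched on both strands: TGANTCA, the AP-1 site, was in 2 of the 17 windows (7.71% of all), both matches in CLDN4 falling in 1 of them, and AACCGG, the core bound by Grainyhead-like factors, was in 3 (7.23% of all). Matches to different motifs did not overlap. These are letters in a window and no measure of binding.

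The CLDN1 window also contained the start of a second claudin. In GENCODE 29, CLDN1 (chr3:190305701-190322475, minus strand) and CLDN16 (chr3:190322541-190412143, plus strand) run away from each other with 65 bases between them, and the CLDN16 start lay 95 bases before the RefSeq start of CLDN1. CLDN3 (chr7:73768997-73770270, minus strand) and CLDN4 (chr7:73799542-73832693, plus strand) are likewise divergent neighbours, 29271 bases apart.

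Claudin transcripts of untreated WT cells were mostly CLDN7. Levels of different genes are compared per kilobase of exon (RPKM, CPM divided by the length of the union of exons). CLDN7 stood at 115 ± 5.71 RPKM (SD, n = 3), F11R at 45.9 ± 2.33, CLDN4 at 33.1 ± 4.20 and CLDN1 at 15 ± 1. TJP1 at 10.6 ± 0.268 and OCLN at 10.5 ± 0.246 followed and did not differ beyond their spread. TJP3 at 1.64 ± 0.171 and CLDN3 at 1.22 ± 0.475 also lay within their spread of each other, and CLDN2 was at 0.242 ± 0.158. With the longest transcript as the length, CLDN1 and TJP1 came to 15.8 and 15.1 RPKM, so their order rests on the length used.

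The order changed after 7 days of erlotinib. CLDN7 was at 137 ± 27.7 RPKM and CLDN1 at 123 ± 25.2, within their spread of each other, ahead of CLDN4 at 49.9 ± 9.11 and F11R at 47.7 ± 9.24, which did not differ beyond their spread either. In DTEC the first 4 places were again CLDN7 (119 ± 5.27), F11R (54.6 ± 6.02), CLDN4 (44.1 ± 9.94) and CLDN1 (31.5 ± 8.37), and CLDN4 lay within the spread of both of its neighbours. KO cells had the order of WT cells for these 4, from CLDN7 at 112 ± 6.95 to CLDN1 at 18.5 ± 0.896 RPKM.

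**Figure D1:**
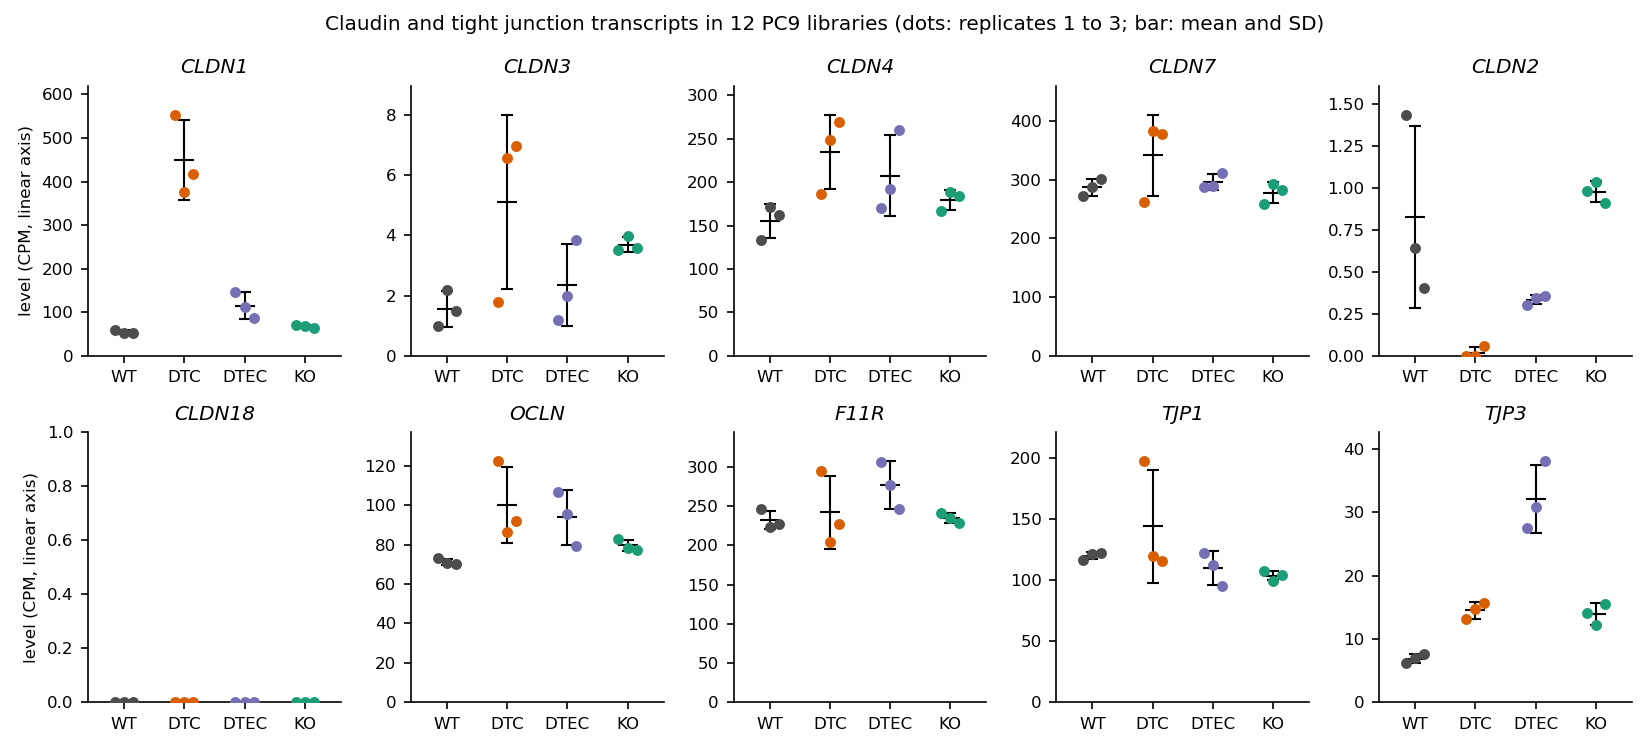
Level of each gene (CPM, linear axis from 0, own scale per panel) in the 12 libraries; dots are replicates 1 to 3 from left to right and the bar is the mean with its SD. CLDN1 peaked in DTC at 377 to 553 CPM, TJP3 was highest in DTEC at 27.5 to 38 CPM, CLDN2 was nearly absent from DTC, and CLDN18 was at 0 throughout.

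Erlotinib for 7 days was compared with no treatment first, to ask which junction genes differ in drug-tolerant cells. Of the 9 tested members, 5 rose (CLDN1, CLDN3, CLDN4, OCLN and TJP3) and 1 fell (CLDN2), at an adjusted p under 0.05 (edgeR's quasi-likelihood test, Benjamini-Hochberg over 17115 genes). The background was high, as 67.3% of all genes tested passed the same threshold, 34% higher and 33.3% lower, so that 6 of 9 members called is close to the share of all genes. The median log2 fold change was 0.49 over the 9 members and 0.06 over all genes tested. The 3 DTC libraries did not overlap the 3 WT libraries for 5 of the 9 members, beside 68.9% of all genes. CLDN2, counted among the 6 called and the 5 without overlap, passed the low-count filter through groups other than DTC. Upper-quartile scaling and scaling to total counts moved the median of all genes to 0.34 and 0.41. Under both, all 9 members were called, with CLDN7, F11R and TJP1 added to those that rose. The 67.3% belongs to the TMM fit, and the share of all genes called under these scalings is not given here. As the median of all genes shifted upward under them, the added calls cannot be read as particular to the members.

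CLDN1, a barrier-forming claudin best known from the epidermis, rose most. Its WT libraries held 59.1, 53.6 and 52.1 CPM and its DTC libraries 553, 377 and 417 CPM. Every DTC library was thus far above every WT library, with replicate 1 the highest. The log2 fold change was 3.03 (SE 0.185, 95% interval 2.63 to 3.43, 8.17-fold, adjusted p = 6.13e-09), and without DTC replicate 1 it was 2.89.

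CLDN3 and CLDN4, both receptors of a clostridial enterotoxin and mainly barrier-forming, rose less evenly. CLDN3 was scarce: 0.986, 2.19 and 1.5 CPM in WT and 1.79, 6.56 and 6.98 CPM in DTC. DTC replicates 2 and 3 lay above all WT libraries, but replicate 1 lay inside the WT range, so the groups overlapped (log2 fold change 1.72, SE 0.496, adjusted p = 0.00785; 2.16 without DTC replicate 1). CLDN4 was at 134, 172 and 162 CPM in WT and 187, 248 and 269 CPM in DTC, with no overlap and DTC replicate 1 again the lowest (0.59, SE 0.164, adjusted p = 0.00533). CLDN3 and CLDN4 had a Pearson r of 0.818 over the 12 libraries in log2 CPM, given as a description.

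CLDN7, which binds EPCAM in epithelial membranes, did not pass the test in this comparison. WT libraries held 272, 288 and 300 CPM and DTC libraries 262, 384 and 378 CPM. Replicate 1 was below all WT libraries and the other two above them. The log2 fold change was 0.25 (95% interval -0.02 to 0.53, adjusted p = 0.0976), and without DTC replicate 1 it was 0.45 and passed (adjusted p = 0.000136). EPCAM itself fell in DTC, from 590 to 714 CPM in WT to 359 to 367 CPM (log2 fold change -0.81, adjusted p = 6.07e-06).

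CLDN2, whose strands form a channel for cations and water, moved the other way. Its deposited counts were 48, 19 and 14 in the WT libraries and 0, 0 and 2 in the DTC libraries. All DTC libraries were at or under the counting floor of 3 counts, below all WT libraries, and WT replicate 1 was 2.75 times the mean of the other two. Set against the floor, CLDN2 was at least 8.15-fold lower in DTC (adjusted p = 4.28e-05), and at least 5.15-fold lower without WT replicate 1. As no molecular identifiers were read, the floor covers counting error alone. CLDN2 passed the low-count filter through groups where it was higher and not through DTC, so the filter favoured this call.

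Occludin (OCLN), a 4-pass protein of the strands, rose modestly. WT libraries held 73.1, 70.6 and 69.9 CPM and DTC libraries 122, 86.5 and 91.7 CPM. The groups did not overlap, and replicate 1 was the highest (0.49, SE 0.133, adjusted p = 0.00457; 0.36 and adjusted p = 0.00488 without it). F11R, the immunoglobulin-type adhesion molecule JAM-A, was at 246, 224 and 228 CPM in WT and 294, 204 and 227 CPM in DTC. These ranges overlapped, and the log2 fold change was 0.06 (95% interval -0.22 to 0.33, adjusted p = 0.71).

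The 2 scaffold genes differed. TJP1 (ZO-1) was at 116, 122 and 122 CPM in WT and 197, 119 and 115 CPM in DTC, so that replicate 1 alone lay above the WT range (0.26, 95% interval -0.10 to 0.62, adjusted p = 0.18; 0.00 without it). TJP3 (ZO-3), the family member found mainly in epithelia, was at 6.15, 6.98 and 7.59 CPM in WT and 13.1, 14.7 and 15.8 CPM in DTC. Here the libraries did not overlap and replicate 1 was near the others (1.07, SE 0.145, 2.1-fold, adjusted p = 1.41e-05).

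**Figure D2:**
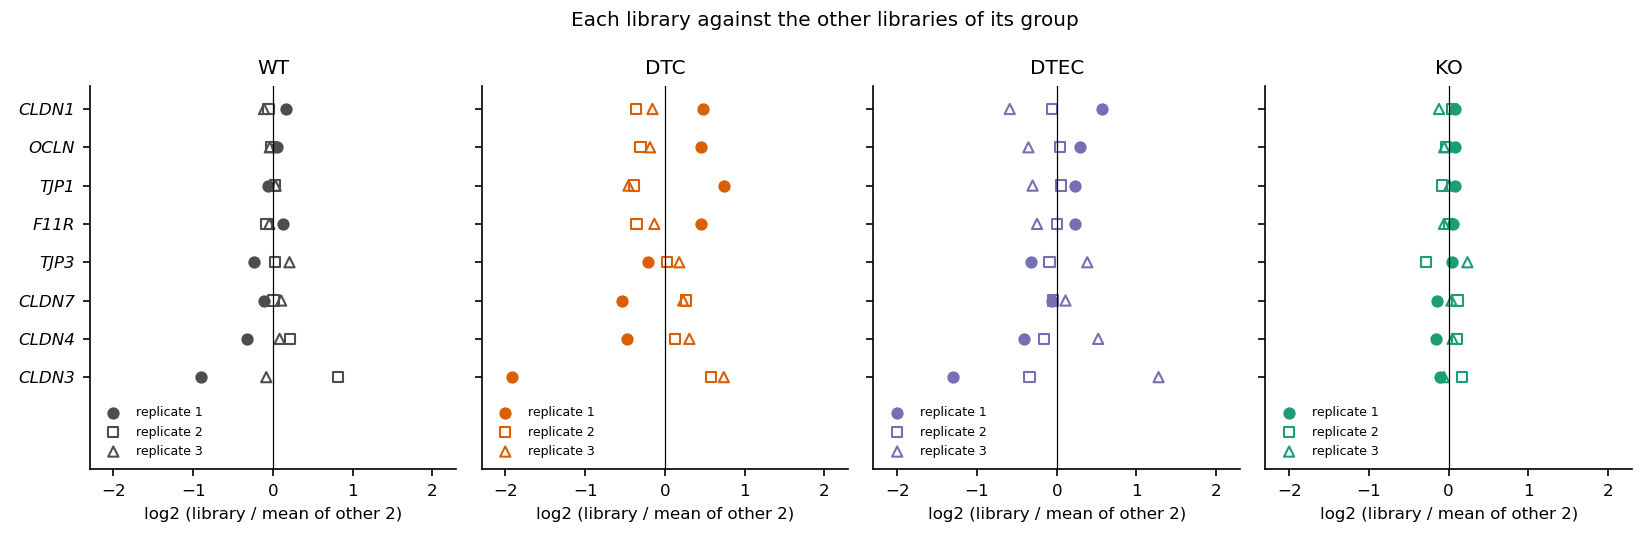
Each library against the mean of the other 2 libraries of its group (log2 ratio) for the 8 members above the counting floor in all libraries; symbols are replicates 1, 2 and 3. DTC replicate 1 lies right of 0 for CLDN1, OCLN, TJP1 and F11R and left of 0 for TJP3, CLDN7, CLDN4 and CLDN3.

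The members parted into 2 sets within DTC replicate 1. Relative to the mean of the other DTC libraries it held 1.39 times as much CLDN1, 1.37 times OCLN, 1.68 times TJP1 and 1.36 times F11R. For CLDN3 the ratio was 0.265, for CLDN7 0.687, for CLDN4 0.722 and for TJP3 0.862. The GC content of the first 4 transcripts was 41.5, 39.9, 44.8 and 47.6%, and that of the last 4 was 69.2, 59.6, 57.5 and 63.2%, with a median of 48.4% over the genes tested. DTEC replicate 3, with a slope of 0.125 per 10 points of GC against the DTEC mean, had the reverse order, with 0.664 times as much CLDN1 and 2.42 times as much CLDN3 as the other DTEC libraries. With a GC trend removed from every library, a correction added after the data were seen, the same 6 members were called in DTC against WT, with log2 fold changes of 3.01 for CLDN1, 1.70 for CLDN3, 0.55 for CLDN4, 0.49 for OCLN and 1.10 for TJP3.

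In DTEC 4 members rose (CLDN1, CLDN4, OCLN and TJP3), none fell, and 5 did not pass, beside 52.3% of all genes called, as 26% higher and 26.3% lower. The median log2 fold change was 0.40 over the members and 0.02 over all genes. The libraries did not overlap for 4 members (62.4% of all genes). These comparisons share the WT libraries with those at 7 days.

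TJP3 rose most in DTEC: its libraries held 27.5, 30.8 and 38 CPM, each over 3 times any WT library. The log2 fold change was 2.22 (SE 0.147, 95% interval 1.90 to 2.53, 4.65-fold, adjusted p = 4.9e-08). CLDN1 was at 148, 113 and 86.4 CPM, above all WT libraries and below all DTC libraries (1.07, SE 0.174, 2.1-fold, adjusted p = 0.000153).

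Smaller changes in OCLN and CLDN4 lay close to the threshold. OCLN was at 107, 95.4 and 79.0 CPM in DTEC, without overlap with WT (0.40, adjusted p = 0.0218), and lost the call when WT replicate 2 or 3 or DTEC replicate 1 or 2 was left out (adjusted p = 0.0553 to 0.0915). CLDN4 was at 170, 192 and 260 CPM, its lowest library inside the WT range (0.42, adjusted p = 0.0458), and lost the call without WT replicate 1 or 3 or DTEC replicate 2 or 3 (adjusted p = 0.0582 to 0.275), and when only the 6 compared libraries were fitted (0.0574).

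Of the remaining members at 28 days, CLDN2 had counts of 10, 9 and 13, below the lowest WT count of 14, and its log2 fold change of -1.29 had an adjusted p of 0.0512. CLDN3 was at 1.19, 1.99 and 3.85 CPM, overlapping WT (0.60, adjusted p = 0.337). CLDN7 at 288, 289 and 311 CPM gave 0.05 (95% interval -0.23 to 0.32), F11R at 307, 277 and 246 CPM gave 0.25 (-0.02 to 0.52), and TJP1 at 122, 113 and 95.1 CPM gave -0.12 (-0.48 to 0.24). None of these 3 passed the test.

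The direct comparison of 28 with 7 days asked which of the genes differ between the tolerant and the expanded stage. CLDN1 fell, and CLDN2 and TJP3 rose (3 of 9 members, beside 55.4% of all genes called, 28.8% higher and 26.6% lower). CLDN1 fell by 1.96 on the log2 scale (SE 0.177, 95% interval -2.34 to -1.58, 3.89-fold lower in DTEC, adjusted p = 6.79e-07). TJP3 rose by a further 1.15 (SE 0.140, 2.21-fold, adjusted p = 1.03e-05), so this scaffold gene was higher at each step. CLDN2 went from 0 to 2 counts in DTC to 9 to 13 in DTEC, at least 3.31-fold higher than the floor (adjusted p = 0.00157), with no overlap. Its passage of the low-count filter through groups other than DTC limits this call as well.

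For the other 6 members the difference between 28 and 7 days did not pass. It was -1.12 for CLDN3 (adjusted p = 0.0639) and -0.39 for TJP1 (adjusted p = 0.0642), and between -0.21 and 0.19 for CLDN4, CLDN7, OCLN and F11R. The median was -0.18 over the members and -0.01 over all genes. The libraries did not overlap for 3 members, beside 56.7% of all genes. The count of 3 depended on the libraries and scaling. Without DTC replicate 1, 6 members were called, where CLDN3 (-1.53), CLDN7 (-0.38) and F11R (0.34) were added. Under upper-quartile or total-count scaling 6 were called, and the median of all genes moved to -0.183 and -0.195. The 55.4% belongs to the main fit. The share of all genes called in these other settings is not given here, so the count of 6 has no background beside it.

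**Figure D3:**
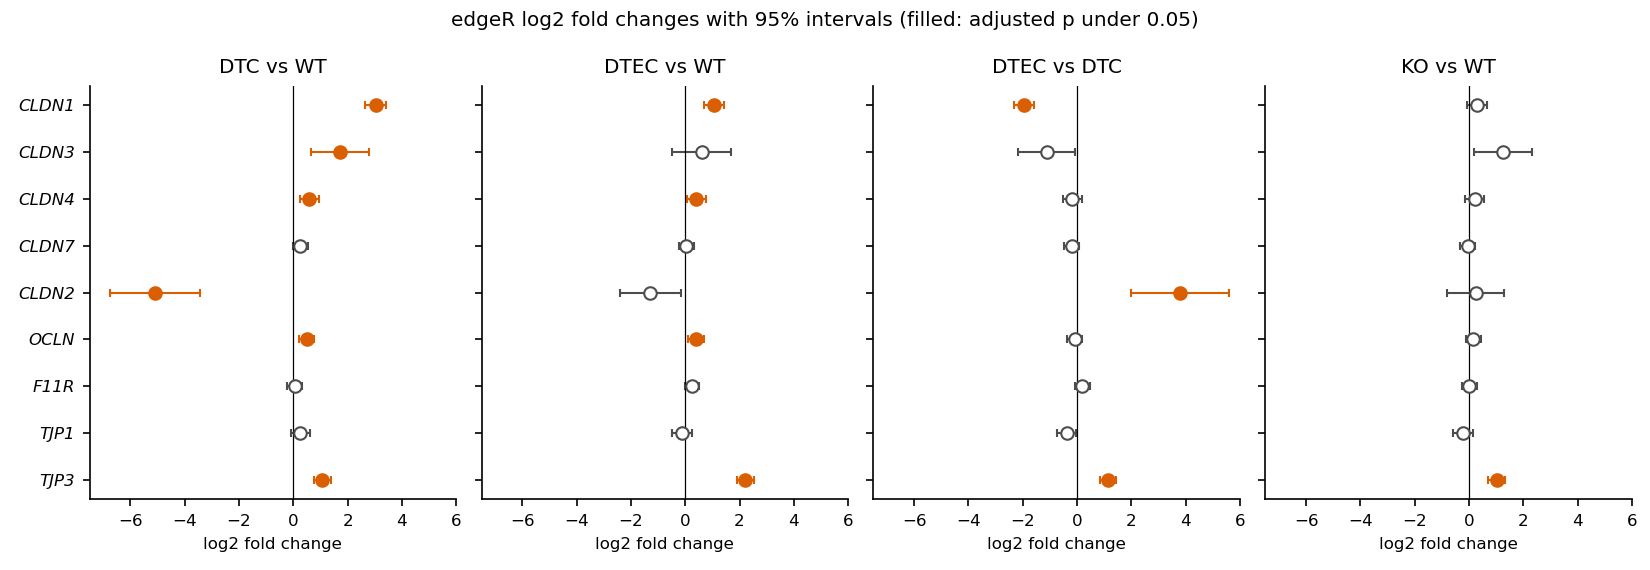
Log2 fold change (x axis) of the 9 tested members in 4 comparisons, with 95% intervals from edgeR; filled points have an adjusted p under 0.05. CLDN1 is at 3.03 in DTC and 1.07 in DTEC against WT, TJP3 at 1.07 and 2.22, and in KO against WT only TJP3 (1.02) is filled.

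Loss of TDP1 without drug went with a change in 1 member. TJP3 rose in KO, to 14.2, 12.2 and 15.5 CPM from 6.15 to 7.59 in WT, with no overlap (log2 fold change 1.02, SE 0.145, 95% interval 0.70 to 1.33, 2.02-fold, adjusted p = 0.00124). Of all genes tested, 4.31% were called and 2.76% were called higher, 1.55% lower. The level of TJP3 in untreated KO cells lay in the range of the 7-day DTC libraries (13.1 to 15.8 CPM) except for replicate 2, which was lower. The call held without each WT and KO library in turn and in every other setting tried, with log2 fold changes of 0.81 to 1.11 and adjusted p-values up to 0.0122.

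No other member passed the test in KO. CLDN3 was at 3.51, 3.98 and 3.59 CPM, above all WT libraries, but its log2 fold change of 1.25 (95% interval 0.17 to 2.33) had an adjusted p of 0.218. CLDN1 was at 70.1, 69.1 and 64.0 CPM, also above all WT libraries (0.30, adjusted p = 0.412). For CLDN2, with counts of 28, 32 and 33, the value was 0.24 (-0.80 to 1.27). The values for CLDN4, CLDN7, OCLN, TJP1 and F11R ran from -0.21 to 0.21, with intervals reaching no further than -0.57 and 0.56. For 5 of the 9 members there was no overlap between KO and WT libraries, beside 35.7% of all genes, and the median was 0.21 against -0.01 over all genes. Fitting the 6 untreated libraries alone called 5 members in place of 1, and 2656 genes in place of 738.

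The mixture of claudins was described as the share of each of 24 claudin genes in their summed RPKM. Of the 24, 10 (CLDN18 and CLDN5 among them) were at or under 3 counts in all 12 libraries. The sum was 177 ± 9.05 RPKM in WT and 334 ± 17.4 in DTC, 212 ± 9.47 for DTEC and 185 ± 8.98 for KO. The DTC libraries (316 to 351) lay above all others.

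CLDN1 made up 8.52% ± 1.03 of the claudin sum in WT and 36.9% ± 9.38 in DTC. CLDN7 made up 65.1% ± 1.06 in WT and 40.8% ± 6.68 in DTC. In DTEC the shares were 15% ± 4.38 for CLDN1 and 56.1% ± 0.56 for CLDN7, between those of WT and DTC. The ranges of each pair of these 3 groups were separate for both genes. An exact two-sided permutation test gave p = 0.1 for each such pair, the smallest that 3 libraries against 3 can give, so this design could not reach 0.05.

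The CLDN4 share moved less than those of CLDN1 and CLDN7. It was 18.7% ± 1.56 in WT and 14.9% ± 2.02 in DTC, 20.8% ± 3.78 for DTEC and 20.7% ± 0.358 for KO. DTC libraries (12.55 to 16.3%) lay below all WT (17.07 to 20.19%) and DTEC libraries (17.41 to 24.85%). With the longest transcript as the length, DTC (up to 15.49%) and WT (from 15.3%) overlapped. CLDN2, the channel-forming claudin, never exceeded 0.253% of the sum. In KO cells CLDN1 had 10.0% ± 0.819 and CLDN7 60.3% ± 0.858, the latter below the WT range. The CLDN1 share was 7.13% in WT and 32.9% in DTC with the longest transcript as the length, and 47.7% in DTC replicate 1 against 30.6% in the lowest DTC library.

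**Figure D4:**
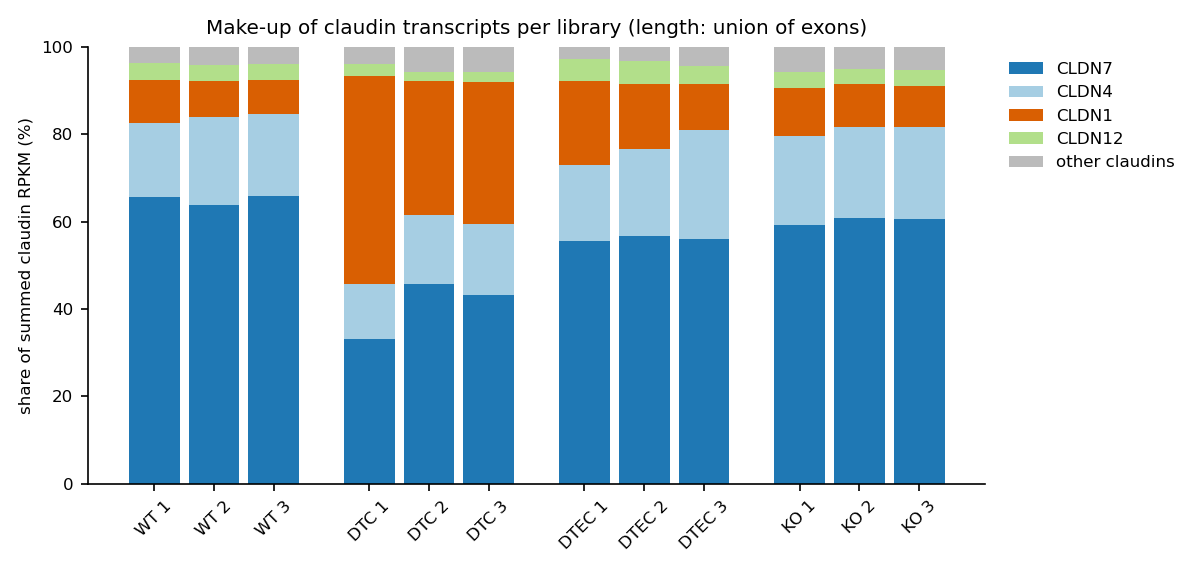
Share (%) of CLDN7, CLDN4, CLDN1, CLDN12 and all other claudins in the summed claudin RPKM of each of the 12 libraries, as stacked bars from 0 to 100. The CLDN1 part grows from 8.52% in WT to 36.9% in DTC on average and is 15% in DTEC, while the CLDN7 part moves from 65.1% to 40.8% and 56.1%.

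Other genes of the claudin family came from a list of 18 claudins and the claudin-domain genes CLDND1 and CLDND2. Only 7 of these 20 passed the filter on low counts, CLDND1 among them. CLDN11 and CLDN16 passed it through the erlotinib groups, with mean counts of 1.33 and 2.67 in WT, so they had to differ, and the counts below describe the tested genes and no more. In DTC 6 of the 7 rose and 0 fell, CLDND1 included, beside 34% and 33.3% of all genes. In DTEC 2 rose, beside 26%, and from DTC to DTEC 6 fell and 1 rose, beside 26.6% and 28.8%. Of the 4 claudins other than CLDN11 and CLDN16, 3 rose in DTC, 1 rose in DTEC, and 3 fell and 1 rose from DTC to DTEC (edgeR's quasi-likelihood test).

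CLDN16, a kidney claudin needed for magnesium reabsorption and the divergent neighbour of CLDN1, had 3, 5 and 0 counts in WT and 4, 1 and 2 in KO libraries. DTC libraries held 127, 109 and 119 counts and DTEC libraries 45, 20 and 19. It was high in DTC, intermediate in DTEC and near the floor in both untreated groups. The stranded kit separates the transcripts of these 2 genes only if the counting used strand, which is not given in the sources used here. CLDN9, which lies 206 bases from CLDN6 on chromosome 16, went from 5.02 to 6.31 CPM in WT to 12.3 to 17.5 in DTC and 4.78 to 7.56 in DTEC. Its log2 fold change was 1.38 in DTC against WT (adjusted p = 9.2e-06) and -1.34 in DTEC against DTC (adjusted p = 2.3e-05). CLDN23 gave 0.98 and -1.36 in the same 2 comparisons. CLDN12 was higher in DTEC than in WT (0.56, adjusted p = 0.00025), at 60.7 to 69.9 against 43.9 to 46.4 CPM. The related CLDND1 was the 1 gene of the list called in KO (-0.46, adjusted p = 0.0393), and that call was lost under upper-quartile and under total-count scaling.

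Among 11 other membrane proteins of the junction, 8 were tested. In DTC 4 rose and 2 fell, so that 6 of 8 were called, beside 67.3% of all genes. In DTEC 2 rose and 2 fell, beside 52.3% called, and 0 were called in KO, where 2.76% and 1.55% of all genes were called higher and lower. Both shares under erlotinib are near the background. ILDR2 and ILDR1, which belong to the angulins that mark the corners where 3 cells meet, rose in DTC by 3.00 and 1.58 (adjusted p = 0.000135 and 0.000145). ILDR2 had a mean count of 8.67 in WT and passed the filter through DTC. BVES, a Popeye-domain adhesion protein, rose by 1.70 in DTC and fell by 1.5 from DTC to DTEC. CRB3, the Crumbs polarity protein, rose by 1.11 in DTC and fell by 1.08 from DTC to DTEC. Its mean in DTEC was near that in WT (9.36 against 9.18 CPM). LSR, also an angulin, was lower in DTEC than in WT (-0.47, adjusted p = 0.00547), as was MARVELD3 (-0.45, adjusted p = 0.00309). Under upper-quartile and total-count scaling 5 rose and 0 fell in DTC, where the median of all genes moved to 0.34 and 0.41.

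The plaque and polarity list held 30 genes, 29 of them tested. MAGI2, with a mean WT count of 6, passed the filter through the erlotinib groups. In DTC 13 rose and 8 fell, beside 34% and 33.3% of all genes, and in DTEC 12 rose and 1 fell, beside 26% and 26.3%. Between DTC and DTEC 12 rose and 5 fell, beside 28.8% and 26.6%, and in KO 1 rose, beside 2.76%. Scaling moved these splits. Upper-quartile scaling gave 18 higher and 6 lower in DTC and 9 and 6 from DTC to DTEC. Total counts gave 18 and 4, and 8 and 6. The median of all genes under these scalings was 0.34 and 0.41 in DTC, and -0.183 and -0.195 from DTC to DTEC. Without DTC replicate 1, 30 genes were tested, of which 11 rose and 8 fell in DTC. From DTC to DTEC 16 rose and 5 fell. The list median in DTC was then 0.135, beside 0.121 over all genes. With that library it was 0.226, beside 0.055. The list median in DTEC against WT was 0.23, beside 0.02 over all genes. AMOT, the angiomotin that binds the polarity protein PATJ, was at 37.6 to 42.3 CPM in WT and 30.7 to 52.4 in DTC. DTEC libraries held 118 to 126 CPM and KO libraries 74.2 to 77.5. It was thus high in DTEC and in KO but not in DTC (1.61 in DTEC against WT, adjusted p = 1.32e-06; 0.93 in KO, adjusted p = 0.00351). Its relative AMOTL2 and PATJ itself rose by 1.39 and 1.29 in DTEC. In DTC the leading genes were CGNL1 (paracingulin, 2.22), RAB13 (a GTPase that carries junction proteins to the membrane, 1.56) and PARD6A (1.27). CGNL1 and PARD6A were lower again in DTEC than in DTC (-1.02 and -1.01).

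In the list of adherens junction proteins and claudin partners all 19 genes were tested. In DTC 8 rose and 6 fell, beside 34% and 33.3% of all genes, in DTEC 10 rose and 4 fell, beside 26% and 26.3%, and in KO 2 rose, beside 2.76%. From DTC to DTEC 7 rose and 5 fell, beside 28.8% and 26.6%. Under upper-quartile scaling 11 were higher and 3 lower in DTC, and under total counts 12 and 3. From DTC to DTEC the split turned to 4 higher and 6 lower under both. These scalings moved the median of all genes to 0.34 and 0.41 in DTC, and to -0.183 and -0.195 from DTC to DTEC. Without DTC replicate 1, 8 rose and 5 fell in DTC, and 8 rose and 4 fell from DTC to DTEC. The list median in DTC was then 0.033, beside 0.121 over all genes. With that library it was 0.16, beside 0.055. PRSS8, the membrane serine protease prostasin, was at 2.51 to 2.63 CPM in WT and 7.20 to 8.84 in KO. Under erlotinib it was at 26.8 to 34.3 CPM (DTC) and 33.6 to 37.0 CPM (DTEC). None of these ranges overlapped WT (3.52, 3.76 and 1.61, adjusted p = 9.93e-11, 2.02e-10 and 1e-05). NECTIN1, an adhesion molecule, was lower in DTC (-2.22) and DTEC (-1.07) than in WT. NECTIN4 rose in DTEC (1.35) and in KO (0.57, adjusted p = 0.0166). Its mean was 7.75 CPM in WT, 21.6 in DTC and 19.7 in DTEC, so it was also higher in DTC. CTNNB1 was higher in DTEC than in DTC (0.71) but below WT in both, with means of 479 CPM in WT, 238 in DTC and 390 in DTEC.

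Regulators of epithelial genes went in both directions. Of 22, 17 were tested. In DTC 7 rose and 9 fell, beside 34% and 33.3% of all genes, and in DTEC 4 rose and 3 fell, beside 26% and 26.3%. From DTC to DTEC 9 rose and 8 fell, beside 28.8% and 26.6%, and in KO 2 rose and 1 fell, beside 2.76% and 1.55%. NKX2-1 and TWIST1, with mean WT counts of 1 and 6.67, passed the filter through the erlotinib groups. SNAI2 and ZEB2, repressors that bind the E-box, rose in DTC by 1.45 and 2.13 and fell from DTC to DTEC by 1.59 and 1.46. SNAI2 was at 10.6 to 11.2 CPM in WT and 6.97 to 7.86 in KO, and at 27.9 to 32.6 (DTC) and 9.55 to 10.8 (DTEC) under erlotinib. SNAI1, of the same family, was lower in DTEC than in WT (-1.54). FOXA1 fell in DTC (-1.45), and ESRP1, an epithelial splicing factor, was higher in DTEC than in DTC (1.39). ELF3, an epithelial ETS factor, rose in DTEC (1.33, adjusted p = 2.74e-08) and in KO (0.45, adjusted p = 0.00587). Its mean was also higher in DTC than in WT (158 against 95.1 CPM). OVOL1 was lower in DTEC than in WT (-1.29), and in KO OVOL2 was higher (0.73) and SNAI2 lower (-0.57). Under upper-quartile and total-count scaling 4 in place of 9 of these genes fell in DTC, where the median of all genes moved to 0.34 and 0.41.

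**Figure D5:**
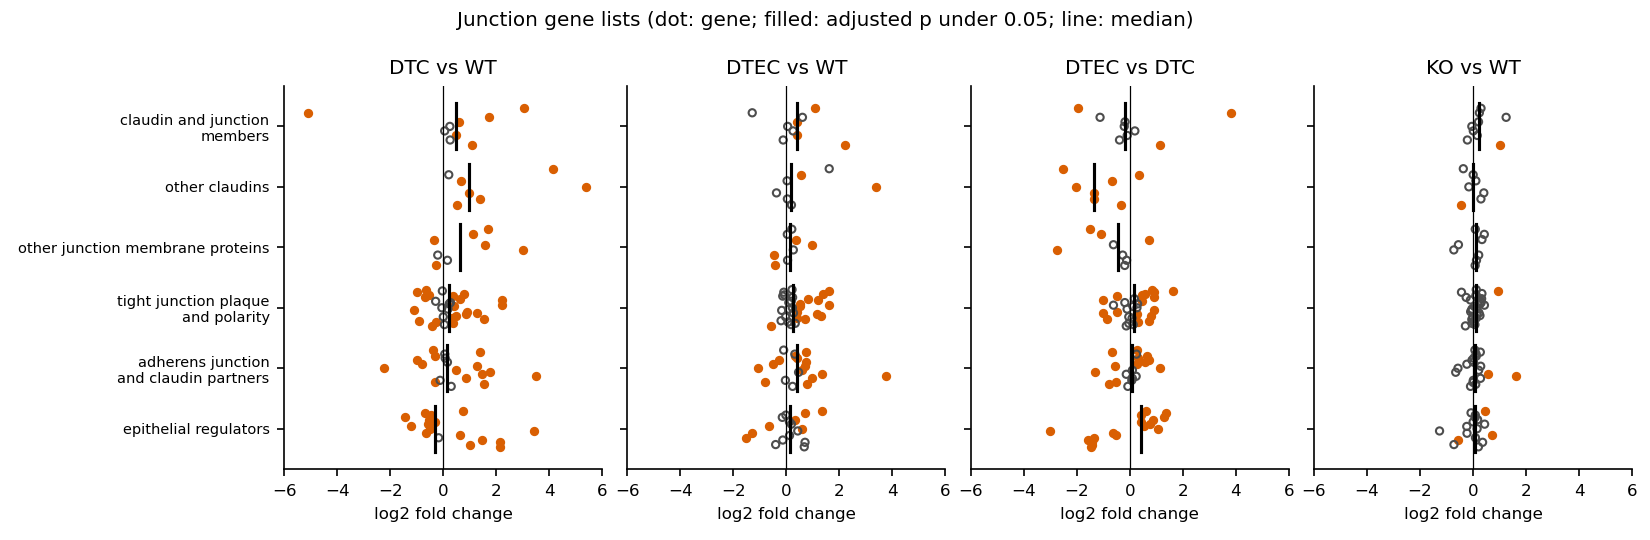
Log2 fold change (x axis) of each tested gene of the member set and of 5 junction gene lists in 4 comparisons; filled dots have an adjusted p under 0.05 and the black line is the list median. CLDN11 and CLDN16 among the other claudins passed the filter through the erlotinib groups, and few genes are filled in KO against WT.

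To place the members among all genes, the pattern of log2 CPM over the 12 libraries was compared with that of 9793 genes with a mean of at least 10 CPM. The libraries fall into 4 groups, so that any gene with a like order of group means scores high. CLDN1 was most like TIMP2 (Pearson r 0.998) and CDC42EP3 (0.996). TJP3 was most like PRR36 (0.989) and STRA6 (0.984), and CLDN2 most like DUS4L-BCAP29 (0.978) and ARHGEF39 (0.971). CLDN4 was nearest to CORO1B (0.981) and H2AJ (0.969), CLDN3 to BBLN (0.952) and TSC22D4 (0.944), and CLDN7 to TMEM179B (0.975) and MPG (0.92). For OCLN these were CHIC1 (0.973) and B4GALT1 (0.972), for TJP1 SPAG9 (0.962) and ZBTB43 (0.954), and for F11R KIAA0232 (0.973) and SEL1L (0.97). Between members themselves r ran from -0.929 for CLDN1 and CLDN2 to 0.818 for CLDN3 and CLDN4.

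Some member counts are less certain than others. None of the 12 F11R values was whole, and F11R shares 1853 exon bases with the read-through locus AL591806.3 on its own strand, which had a mean count of 969. Of the 12 CLDN7 values 3 were whole, and CLDN7 shares 269 exon bases with AC003688.1 (mean count 3.6). OCLN had 2 whole values of 12, and its pseudogene OCLNP1 was listed with at most 3.62 counts. When counts of the read-through locus were added to F11R and CLDN7, neither passed in the comparisons in which it had not passed before.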

How the data were processed

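Members and gene lists were chosen with earlier results of these data known. The deposited values were expected counts per Ensembl gene, that is, estimated read counts without scaling, from 12 polyA libraries of paired 101-base reads. Per the submitters' processing notes, RSEM 1.3.1, Bowtie2 2.5.2, DESeq2 1.40.2 and GRCh38 were used; their settings and the annotation release are not given in the sources used here. Coordinates, exon lengths and GC contents are of GENCODE 29, which held 92.8% of the identifiers. Values were rounded and fitted in R 4.3.3 with edgeR 4.0.16 (filterByExpr by group, TMM, all 12 libraries, 1 mean per group, robust quasi-likelihood F test). The filter kept at least 99.891% of the counts of each library. P-values were adjusted by Benjamini-Hochberg over 17115 genes and called under 0.05. The script was tested on simulated data.

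Named were all members, TDP1, up to 3 called genes per list and comparison with the largest change and a mean of at least 1 CPM, and the 2 genes most like each member (1 gene that this rule selects is not reported here); EPCAM in DTC and other single genes were named after their values were seen. EPCAM and CDH1 are in the epithelial markers and in the adherens junction list, and CLDN5 in the endothelial markers and the claudins. In WT, DTC, DTEC and KO libraries, in this order, endothelial markers summed to 58.5 to 61.4, 42.2 to 50.1, 122 to 142 and 75.8 to 77.3 CPM, haematopoietic markers to 1.62 to 1.92, 12.3 to 12.9, 1.68 to 2.77 and 1.69 to 2.18 CPM, and lung lineage markers to 1.21 to 2.36, 1.42 to 2.55, 12.3 to 17.5 and 5.51 to 7.54 CPM.

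The labels state no pairing of cultures by replicate number, and the main fit used none. Alternatives were other scalings, filters, a DESeq2 1.42.0 test, unrounded counts, fits of the compared libraries alone, the replicate number as a block and each library left out. A GC correction and the adding of read-through loci were chosen after the data were seen. 3 counts were taken as the floor (0.0824 to 0.115 CPM). Promoter windows are from RefSeq.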

Additional observations from a re-analysis of the deposited data

Results flagged for a closer look

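The direct test of 28 against 7 days of erlotinib, which is the difference between the 2 effects against the shared WT libraries, passed the threshold for 3 members (edgeR's quasi-likelihood test, Benjamini-Hochberg). CLDN1 differed by -1.96 on the log2 scale (115 against 449 CPM), lower in DTEC in all 3 libraries. TJP3 differed by 1.15 (32.1 against 14.5 CPM), higher in all 3. For CLDN2 the fitted difference was 3.8, a value that depends on the prior count because DTC held 0 to 2 counts. Set against the floor, CLDN2 was at least 3.31-fold higher in DTEC. It passed the low-count filter through groups other than DTC, which limits this call.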

How the results depend on the processing

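Across 36 tests of members, 579 alternatives were computed: 515 kept direction and side of the threshold, 47 passed it where the reported test had not, and 9 lost the call, all of them for CLDN4 or OCLN in DTEC against WT. CLDN1, CLDN3, CLDN4, OCLN, TJP3 and CLDN2 in DTC against WT, and TJP3 in all comparisons, kept their calls in each alternative computed. Direction turned for values near 0. Under total counts TJP1 in DTEC was at 0.044 and CLDN7 in KO at 0.024. With 1 library left out the range was -0.073 to 0.226 for F11R in DTC (below 0 without DTC replicate 1), -0.001 to 0.09 for CLDN7 in DTEC (DTEC replicate 3), -0.233 to 0.054 for OCLN in DTEC against DTC (DTC replicate 1), -0.07 to 0.921 for CLDN2 in KO (WT replicate 3) and -0.077 to 0.025 for CLDN7 in KO (WT replicate 3 or KO replicate 1). The cause was not tested.

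Members called in DTEC against DTC numbered 6 under upper-quartile scaling and total counts, 5 with no filter, with a filter at 5 CPM and with the GC correction, and 3 to 6 with 1 library left out (6 without DTC replicate 1, 5 without DTEC replicate 3). In DTEC against WT they were 2 to 3 with 1 library left out, the 2 without DTEC replicate 2. For both comparisons the number of all genes called in these settings is not given here. In KO the members called were 2 with no filter and 5 with the untreated libraries alone. Genes called in KO were 1147, 2656 and, by DESeq2, 1114, and 321 to 426 with 1 library left out. The share of calls that were higher was 50.5% in DTC against WT and 65% and 68.4% under upper-quartile and total-count scaling. The libraries were the same in these fits and only the scaling differed. Which scaling is nearer to the RNA content of the cells was not tested. With 3 libraries a group, exact tests cannot go below 0.1, and CLDN2 is limited by counts.

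With the replicate number as a replicate block, members called were 6, 4, 5 and 1 in DTC and DTEC against WT, DTEC against DTC, and KO, and genes 11775, 9255, 9732 and 887. The numbers share no source in the labels. The 18 same-number pairs had correlations of -0.03 to 0.179, 4 of them over 0.1, with a median of 0.053 against -0.032 for other pairs. Of 12 libraries, 8 correlated best with their own number. In every group the GC slope from the group mean was negative for replicate 1 and positive for replicate 3. Whether cultures of a number were handled together was not tested.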
